A study of Mus musculus with 6 samples.

Results

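Galectins are animal lectins that bind beta-galactosides on glycoproteins and glycolipids. The 6 genes described here are the 5 galectin genes Lgals1, Lgals3, Lgals4, Lgals8 and Lgals9 and Lgals3bp, which encodes a secreted galectin-binding glycoprotein that is not itself a galectin. They were taken by symbol from a table of 47643 genes, and each symbol matched 1 gene. They were chosen by family name and by their CPM levels in these 6 libraries, with their CD4-positive against CD4-negative differences already known, so values of that comparison are given for them as a description, without a test.

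Galectins lack a signal peptide and act both inside cells and, after leaving by an unconventional route, on the cell surface, where they cross-link glycoproteins into lattices. Prototype galectins such as galectin-1 have a single carbohydrate-binding domain and form dimers, the chimera galectin-3 adds a proline- and glycine-rich tail through which it forms oligomers, and tandem-repeat galectins (galectin-4, galectin-8 and galectin-9) carry a pair of different domains in 1 chain. In the thymus and in T cells galectins are known for binding CD45, CD43 and CD7, for tuning receptor signalling and for promoting or restraining cell death.

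The libraries are polyadenylated RNA of thymic NKT1 cells that were sorted from BALB/c mice of wild-type genotype, 3 of CD4-positive and 3 of CD4-negative cells. NKT1 cells are the T-bet-expressing subset of invariant natural killer T (iNKT) cells, T cells with a nearly fixed receptor for lipids on CD1d, and the comparison asks which transcripts differ between those with and without the CD4 coreceptor. The labels name no treatment and state neither the age of the mice nor whether the replicates came from separate animals, so an SE or p measures the spread between these libraries, part of which may be technical. Replicate 3 of each group carries another style of library name (R4) than replicates 1 and 2. Levels are CPM (counts scaled to the library total after TMM correction), in which 1 count is worth 0.0185 to 0.0261 CPM, and differences are log2 fold changes, CD4-positive minus CD4-negative.

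The libraries held 40480468 to 53145898 estimated counts. Cd4, the sort marker, checked the labels at 401 to 508 CPM in CD4-positive, against 10.9 to 41.2 CPM in CD4-negative libraries (edgeR's quasi-likelihood test, log2 fold change 4.32, SE 0.52, adjusted p = 0.0330). Defining transcripts of the labelled cells were present in both groups, with means of 106 and 61.9 CPM for Zbtb16 (PLZF), 397 and 437 CPM for Tbx21 (T-bet) and 750 and 706 CPM for the receptor constant gene Trac in CD4-positive and CD4-negative libraries. CD4-negative replicate 3 stood apart, with counts for 13787 genes against 15293 to 16267 in the others and a mean correlation of 0.969 with them against 0.980 to 0.984. CD4-negative replicate 3 and CD4-positive replicate 1 had 1.33% and 1.35% of their counts from mitochondrial genes, against 3.51% to 5.19% in the other 4 libraries.

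The 250 bases before and 50 bases from the RefSeq transcription start (GRCm38.p6) were matched by symbol for 5 of the 6 genes, and the windows of Lgals3 and Lgals9 are shown. Lgals3 is the gene with the largest difference between the groups among the 6, and Lgals9 varied strongly within both groups. The windows are chr14:47373610-47373909 on the plus strand for Lgals3 and chr11:78984875-78985174 on the minus strand for Lgals9, each written 5′ to 3′ on the gene's own strand. Capitals mark matches to the GC box GGGCGG in Lgals3 and to the core of the interferon-stimulated response element, 2 copies of GAAA with any 2 bases between them, in Lgals9, on either strand.
Lgals3: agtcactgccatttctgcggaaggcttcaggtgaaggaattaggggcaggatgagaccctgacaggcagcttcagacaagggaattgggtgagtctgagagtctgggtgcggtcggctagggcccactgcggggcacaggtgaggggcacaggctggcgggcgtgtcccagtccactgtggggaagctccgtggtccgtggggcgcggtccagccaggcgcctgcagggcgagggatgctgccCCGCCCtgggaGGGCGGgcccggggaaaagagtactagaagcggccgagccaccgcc
Lgals9: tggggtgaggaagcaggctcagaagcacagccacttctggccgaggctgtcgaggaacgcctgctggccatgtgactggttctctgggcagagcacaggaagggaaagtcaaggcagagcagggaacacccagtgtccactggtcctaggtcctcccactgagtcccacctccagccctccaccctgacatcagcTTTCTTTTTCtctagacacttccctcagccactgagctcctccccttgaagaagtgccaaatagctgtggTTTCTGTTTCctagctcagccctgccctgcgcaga

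The Lgals3 window had a G and C content of 67.0% and 2 GC boxes, which begin at -7 and 5 from the start and do not overlap. A GC box stood in 35.7% of 32851 promoter windows of the same length. The Lgals9 window (58.0% G and C) held 2 response element cores, both read on the strand opposite to the one shown, whose leftmost bases lie at -55 and 16 from the start. Such a core stood in 3.44% of the windows and in none of those of Lgals3, Lgals3bp, Lgals4 and Lgals8. The Runx site TGTGGT, found in 16.8% of all windows, stood once in Lgals9 and once in Lgals8, and a GC box once in Lgals4. The T-box half-site GGTGTGA, the AP-1 site TGANTCA and the TATA box TATAAA, in 3.98%, 7.81% and 13.6% of windows, had no match in the 5 windows. These matches describe letters and not sites in use.

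Lgals3 encodes galectin-3, which inside cells takes part in survival and vesicle traffic and outside in adhesion and receptor retention. It stood at 21.1, 16.8 and 19.6 CPM in CD4-positive replicates 1 to 3, against 61.7, 49.7 and 66.5 CPM in CD4-negative replicates 1 to 3. Every CD4-positive library lay below every CD4-negative library, and no library stood far from the others of its group. The means were 19.1 ± 2.16 CPM in CD4-positive, against 59.3 ± 8.62 CPM in CD4-negative libraries (SD, n = 3 each), a log2 fold change of -1.63 (SE 0.18), or a 3.10-fold higher level in CD4-negative cells. The gene lies on chromosome 14 from 47367751 to 47386160, plus strand (GENCODE M21, GRCm38). The RefSeq start used for its window lies downstream of this first position, so the window shown falls within the M21 gene. Fewer cells with the transcript and less transcript per cell cannot be told apart in bulk libraries.

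Among the 6 genes Lgals3 alone had groups that did not overlap. Over all 12760 genes tested 27 passed edgeR's quasi-likelihood test, or 0.212% (9 higher, 0.0705%, and 18 lower, 0.141%), and 1201 had non-overlapping groups, or 9.41% (618 higher, 4.84%, and 583 lower, 4.57%). Nothing is read from the share of the 6 since these values were known when they were chosen. The number of genes of the whole table that passed depended on which libraries entered the fit. With any library other than CD4-negative replicate 3 left out it was 0 (439 to 585 at an unadjusted p under 0.05, smallest adjusted p 0.0538 to 0.147 by edgeR), and without CD4-negative replicate 3 it was 44. The log2 fold change of Lgals3 ran from -1.74 without CD4-negative replicate 2 to -1.54 without CD4-negative replicate 3.

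**Figure D1:**
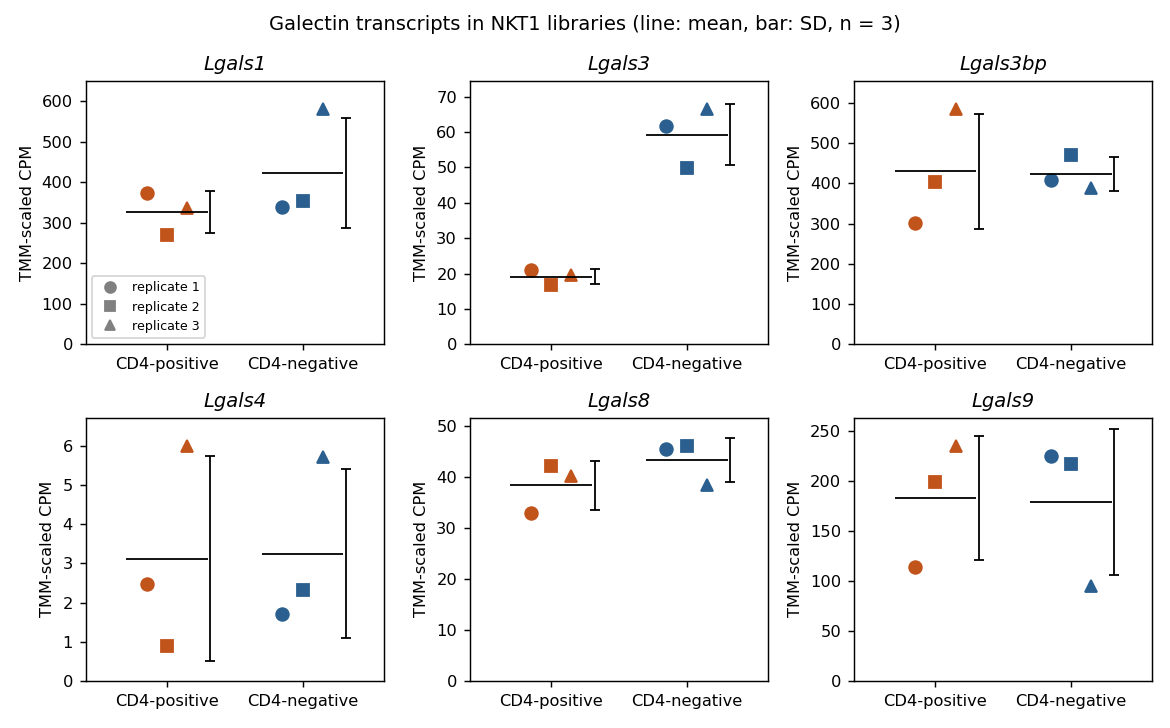
TMM-scaled CPM (vertical axes from 0) of the 6 genes in each library, with CD4-positive libraries left of CD4-negative libraries, symbols for the replicate number, lines for means and bars for the SD (n = 3). Lgals3 is the panel in which the groups separate, at 16.8 to 21.1 CPM in CD4-positive, against 49.7 to 66.5 CPM in CD4-negative libraries, while the groups overlap in the other panels.

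Markers of other cells that could carry Lgals3 were read beside it. Myeloid cells, a known rich source of galectin-3, were represented by 14 markers. Of these 7 were tested, none passed and 7 had a log2 fold change below 0 (median -0.12, against -0.01 over all genes tested). The summed level of the 14 markers was 91.3 to 139 CPM in CD4-positive, against 98.6 to 176 CPM in CD4-negative libraries. Nearly all of it was Cst3, the protease inhibitor cystatin C, with means of 118 CPM in CD4-positive libraries and 121 CPM in CD4-negative ones, and without it the sum was 2.22 to 2.99 CPM in CD4-positive, against 3.42 to 3.85 CPM in CD4-negative libraries. Mertk and Marco had no count in any library, and the means of Csf1r, the macrophage growth factor receptor, were 0.014 CPM in CD4-positive libraries and 0.060 CPM in CD4-negative ones. Itgax, which encodes the integrin CD11c, was low but did not overlap between the groups, at a mean of 0.046 CPM in CD4-positive, against 0.62 CPM in CD4-negative libraries. Of all 12760 genes tested 4.57% had lower, non-overlapping CD4-positive values.

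NK cell and innate lymphoid markers, several of which NKT1 cells also express, moved with Lgals3, at a summed level of 1491 to 1708 CPM in CD4-positive, against 2511 to 3516 CPM in CD4-negative libraries. Of 10 listed genes 8 were tested, none passed and 4 (Ncr1, Klre1, Eomes and Gzma) had lower, non-overlapping CD4-positive values, and Khdc1a had no count. Over all 12760 genes tested 4.57% had lower, non-overlapping CD4-positive values, and 0.212% passed in either direction. Klrb1f and Il1rl1 had log2 fold changes above 0 (0.41 and 0.86), and Rora and Il7r were near 0 (-0.03 and -0.14). Most of the summed difference was Gzma, which encodes granzyme A, with a mean of 163 CPM in CD4-positive, against 1243 CPM in CD4-negative libraries. Without Gzma the sums overlapped, at 1290 to 1599 CPM in CD4-positive, against 1581 to 1776 CPM in CD4-negative libraries. B cell markers summed to 53.2 to 77.4 CPM in CD4-positive, against 112 to 121 CPM in CD4-negative libraries. Of their 5 tested members 3 were lower without overlap (4.57% of all genes tested were), none passed the test, and Pax5 was at 0. Without Ighm, the immunoglobulin heavy chain gene that led this list, the sum was 2.26 to 3.68 CPM in CD4-positive, against 5.35 to 9.16 CPM in CD4-negative libraries. Epithelial and stromal markers summed to 33.6 to 37.7 CPM in CD4-positive, against 19.9 to 23.97 CPM in CD4-negative libraries. Most of this was the adhesion molecule gene Pecam1, with a mean of 31.9 CPM in CD4-positive libraries and 16.1 CPM in CD4-negative ones, and none of 9 tested members passed. Without Pecam1 the sums overlapped, at 2.89 to 3.97 CPM in CD4-positive, against 3.24 to 7.66 CPM in CD4-negative libraries, and 5 of the 9 had log2 fold changes below 0 (median of all 9, -0.25). Whether any of these cells contributed to the Lgals3 difference was not tested.

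Lgals1 encodes galectin-1, the galectin best known for inducing death of activated T cells and thymocytes. Its levels were 373, 271 and 336 CPM in CD4-positive replicates 1 to 3, against 338, 353 and 581 CPM in CD4-negative replicates 1 to 3. The groups overlapped, and the highest value was that of the library that stood apart. The means were 327 ± 51.8 CPM in CD4-positive, against 424 ± 136 CPM in CD4-negative libraries (SD, n = 3 each; log2 -0.38, SE 0.25). Without CD4-negative replicate 3 the log2 fold change was -0.08. Lgals1 lies on chromosome 15 from 78926725 to 78930465, plus strand.

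Lgals9 encodes galectin-9, a ligand of the inhibitory receptor TIM-3 and an interferon-inducible gene. It stood at 114, 199 and 235 CPM in CD4-positive replicates 1 to 3, against 225, 217 and 95.0 CPM in CD4-negative replicates 1 to 3. The low values of the groups, in CD4-positive replicate 1 and CD4-negative replicate 3, came from the libraries with the low mitochondrial shares, whose part in this was not tested. The highest library was 2.06 times the lowest among CD4-positive libraries and 2.37 times the lowest among CD4-negative ones. The means differed by less than this spread, at 183 ± 62.1 CPM in CD4-positive, against 179 ± 72.8 CPM in CD4-negative libraries (SD, n = 3 each; log2 0.03, SE 0.38). Leaving out the low library of a group gave a log2 fold change of 0.28 without CD4-positive replicate 1 and of -0.27 without CD4-negative replicate 3. Lgals9 lies on chromosome 11 from 78962974 to 78984946, minus strand.

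Lgals8 encodes galectin-8, known for marking damaged vesicles for autophagy. Its levels were 32.9, 42.1 and 40.1 CPM in CD4-positive replicates 1 to 3, against 45.5, 46.1 and 38.4 CPM in CD4-negative replicates 1 to 3. The groups overlapped, and the lowest libraries were the same as for Lgals9. The log2 fold change was -0.17 (SE 0.17), and it lay between -0.25 and -0.08 with single libraries left out. Lgals8 (chromosome 13, 12439415 to 12464944, minus strand) overlaps the end of Heatr1 (12395027 to 12440289) on the other strand, and reads there cannot be assigned without the strand setting, which is not given in the sources used here.

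Lgals4 encodes galectin-4, known from gut epithelium, and was the lowest of the 6. It stood at 2.47, 0.89 and 5.997 CPM in CD4-positive replicates 1 to 3 (120, 46 and 311 counts), against 1.70, 2.33 and 5.72 CPM in CD4-negative replicates 1 to 3 (79, 126 and 219 counts). The groups overlapped, and the highest value of each was in replicate 3, the libraries with R4 names. The log2 fold change between CD4-positive and CD4-negative cells was -0.06 (SE 0.72), and it ran from -0.95 without CD4-positive replicate 3 to 0.63 without CD4-negative replicate 3. Lgals4 lies on chromosome 7 from 28833854 to 28841708, plus strand.

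The naming style was not itself used to choose the genes. Their CPM levels in these libraries were used, R4 libraries included, so the choice may not be independent of this contrast. It was tested with the group as a term, as R4 names (1 library per group) against the others. Lgals4 was higher under R4 names by 1.67 on the log2 scale (SE 0.42), with both R4 libraries above all 4 others, and did not pass edgeR's test over 12760 genes (adjusted p = 0.283). As an alternative, DESeq2 on all genes with a count gave an adjusted p of 0.0192, so both the tool and the filter differed there. With the filter kept, limma-voom gave 0.210, and edgeR with a replicate 1 or 2 library left out gave 0.0818 to 0.819. Leaving out a replicate 3 library leaves 1 R4 library, which is then assumed to vary like the others (adjusted p = 0.183 without the CD4-positive one and 0.469 without the CD4-negative one). The other 5 genes had log2 differences of -0.22 to 0.42 and edgeR adjusted p of 0.533 to 0.873. In this contrast 1 gene of 12760, or 0.00784%, passed, the nuclear RNA Malat1, named after its value was seen. At an unadjusted p under 0.05 by edgeR there were 1377 genes, or 10.8%. Between CD4-positive and CD4-negative cells, with group as the only term, there were 567, or 4.44%. The summed level of immature thymocyte markers, like Lgals4, was highest in replicate 3 of each group. Among CD4-positive cells it was 159 CPM there, with 38.5 to 89.3 CPM in the other libraries. Among CD4-negative cells it was 234 CPM, with 58.9 to 120 CPM in the others. Without Cd8a, the marker of highest level, these sums were 119 CPM (28.8 to 61.3 CPM in the others) and 158 CPM (34.8 to 71.3 CPM). Exceptions were Cd8b1 and Cd1d1 in CD4-positive cells and Themis in CD4-negative cells. All other listed markers were highest in replicate 3 of both groups. None of 9 tested thymocyte markers passed the test between CD4-positive and CD4-negative cells, and none was at 0. Their part in the Lgals4 values was not tested.

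Lgals3bp encodes a large secreted glycoprotein of the scavenger receptor family that binds galectins and integrins. It stood at 301, 404 and 585 CPM in CD4-positive replicates 1 to 3, against 409, 470 and 389 CPM in CD4-negative replicates 1 to 3. The CD4-positive libraries enclosed all CD4-negative values, with a coefficient of variation of 33.4% in CD4-positive, against 10.02% in CD4-negative libraries. The means were 430 ± 144 CPM in CD4-positive, against 423 ± 42.3 CPM in CD4-negative libraries (SD, n = 3 each; log2 0.02, SE 0.25). Over the 9175 tested genes that averaged 5 CPM or more the median coefficient of variation was 16.6% in CD4-positive libraries and 17.7% in CD4-negative ones. Lgals3bp lies on chromosome 11 from 118392751 to 118402092, minus strand.

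**Figure D2:**
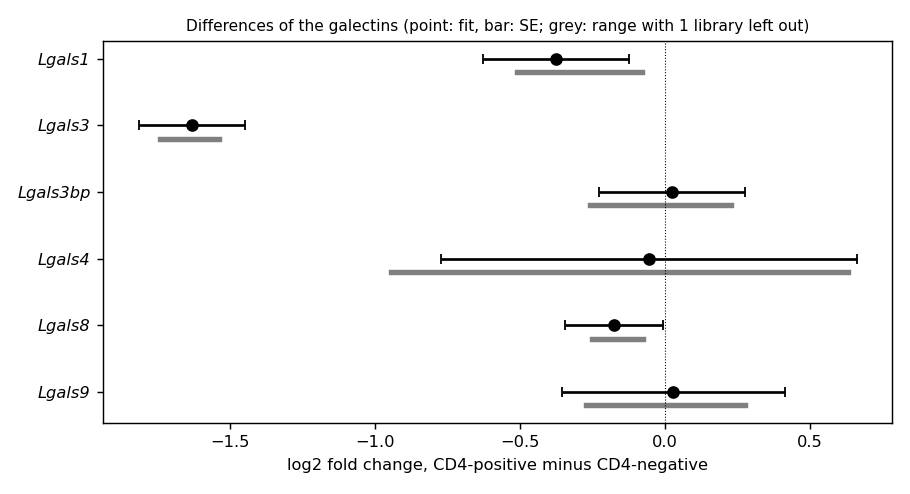
Log2 fold change of the 6 genes between CD4-positive and CD4-negative libraries (horizontal axis, CD4-positive minus CD4-negative), with the SE as a bar and, in grey, the range when single libraries are left out. Lgals3 lies at -1.63 with a range of -1.74 to -1.54, and the grey range crosses 0 for Lgals3bp, Lgals4 and Lgals9.

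To set the genes against each other, CPM was divided by the length of each gene's merged exons in kb. In CD4-positive libraries Lgals1 was highest with 362 ± 57.4 CPM per kb, followed by Lgals3bp with 151 ± 50.4 and Lgals9 with 85.5 ± 29.1 CPM per kb. Lgals8 and Lgals3 came next with 10.4 ± 1.31 and 10.3 ± 1.16 CPM per kb, and Lgals4 last with 1.35 ± 1.13 CPM per kb (SD, n = 3). The ranges of Lgals3bp and Lgals9 overlapped, although Lgals3bp was higher in each of the 3 libraries, and those of Lgals8 and Lgals3 overlapped without a fixed order.

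CD4-negative libraries had the same order except that Lgals3 stood above Lgals8. Lgals1 was at 470 ± 150, Lgals3bp at 148 ± 14.9 and Lgals9 at 83.7 ± 34.1 CPM per kb. Lgals3 followed at 31.9 ± 4.64, then Lgals8 at 11.7 ± 1.16 and Lgals4 at 1.40 ± 0.93 CPM per kb (SD, n = 3), and no neighbours in this order overlapped. The ratio of Lgals3 to Lgals8 per kb was 1.27, 0.79 and 0.97 in CD4-positive replicates 1 to 3, against 2.69, 2.14 and 3.44 in CD4-negative replicates 1 to 3. Lgals1 exceeded Lgals3 per kb by 33.2 to 36.4 times in CD4-positive and by 11.3 to 17.97 times in CD4-negative libraries. The groups overlapped in neither ratio. Both ratios contain Lgals3, so this restates its difference, which was known when the genes were chosen.

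The makeup of the summed level per kb of the 6 genes followed single libraries as well as the groups. Lgals1 made up 69.6% of it in CD4-positive replicate 1 and 73.7% in CD4-negative replicate 3, against 52.3% to 56.0% in the other 4 libraries. The share of Lgals9 was 8.98% and 5.09% in the same libraries and 14.5% to 16.8% in the others. Lgals3 contributed 1.48% to 1.91% in CD4-positive and 3.83% to 4.96% in CD4-negative libraries.

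**Figure D3:**
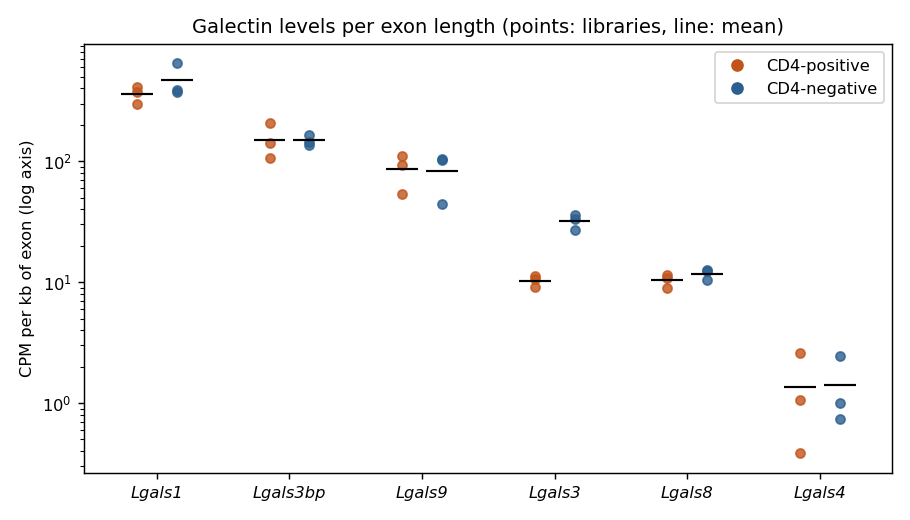
CPM per kb of merged exons (log axis) of the 6 genes, ordered by their mean over all libraries, with points for libraries, lines for means and CD4-positive left of CD4-negative libraries. Lgals3 and Lgals8 lie together at about 10.3 and 10.4 CPM per kb in CD4-positive cells and apart at 31.9 and 11.7 CPM per kb in CD4-negative cells.

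Other members of the family were near or below detection, except Lgalsl, a galectin-related gene whose product lacks the usual sugar binding. Lgalsl stood at 13.9 to 21.6 CPM in CD4-positive, against 13.7 to 20.5 CPM in CD4-negative libraries (edgeR log2 fold change 0.06, SE 0.23, adjusted p = 1). Lgals2 and Lgals12, galectins known from gut and fat, had no count in any library, where 3 counts would be 0.0555 to 0.0783 CPM by counting error alone. Grifin, a lens galectin, had 3 counts over the CD4-positive and 3 over the CD4-negative libraries. Lgals7, a galectin of stratified epithelium, had 80 counts over the CD4-positive libraries, 58 of them in replicate 1, and 14 over the CD4-negative libraries, too few to be tested. The symbol Lgals6 was looked up and was not among the 47643 genes.

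For each of the 6 genes the 3 genes of most like pattern were found among 8675 protein-coding genes with a mean of at least 5 CPM, by the mean absolute difference of log2(CPM + 0.5), centred on each gene's mean, over the 6 libraries. For Lgals3 these were G0s2, an inhibitor of triglyceride lipase (difference 0.134), the sphingosine 1-phosphate receptor gene S1pr5 (0.170) and the fatty acid elongase gene Elovl7 (0.191). Their means were 2.93, 2.26 and 2.26 CPM in CD4-positive and 8.99, 9.64 and 8.78 CPM in CD4-negative libraries. These 3 reached the mean of 5 CPM through the CD4-negative libraries alone, so the filter favours a group split like that of Lgals3. The genes nearest to Lgals1 were Mrpl41, a mitochondrial ribosomal protein gene, the integrin gene Itgb7 and Slirp, an RNA-binding protein gene of mitochondria. Like Lgals1 these were highest in CD4-negative replicate 3, for example 821 CPM of Itgb7 against 382 to 504 CPM in the other libraries.

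The genes nearest to Lgals4 were Gabbr1, a receptor subunit for the transmitter GABA, Ppox, an enzyme of heme synthesis, and Sap25. All were highest in replicate 3 of each group, with 33.9 CPM of Gabbr1 in the CD4-positive one and 35.4 CPM in the CD4-negative one, against 7.54 to 14.3 CPM in the other libraries. Chad, Flcn and Bcl10 were nearest to Lgals9 and low in the same libraries. Flcn, which encodes folliculin, stood at 18.4 CPM in CD4-positive replicate 1 and 14.0 CPM in CD4-negative replicate 3, against 32.1 to 37.4 CPM elsewhere. Pgap3, Psme2b and Mrps22 were nearest to Lgals3bp, and Apopt1, Cep97 and Plpp6 to Lgals8. With 6 libraries and 8675 genes some are near by construction, so nearness is a description.

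**Figure D4:**
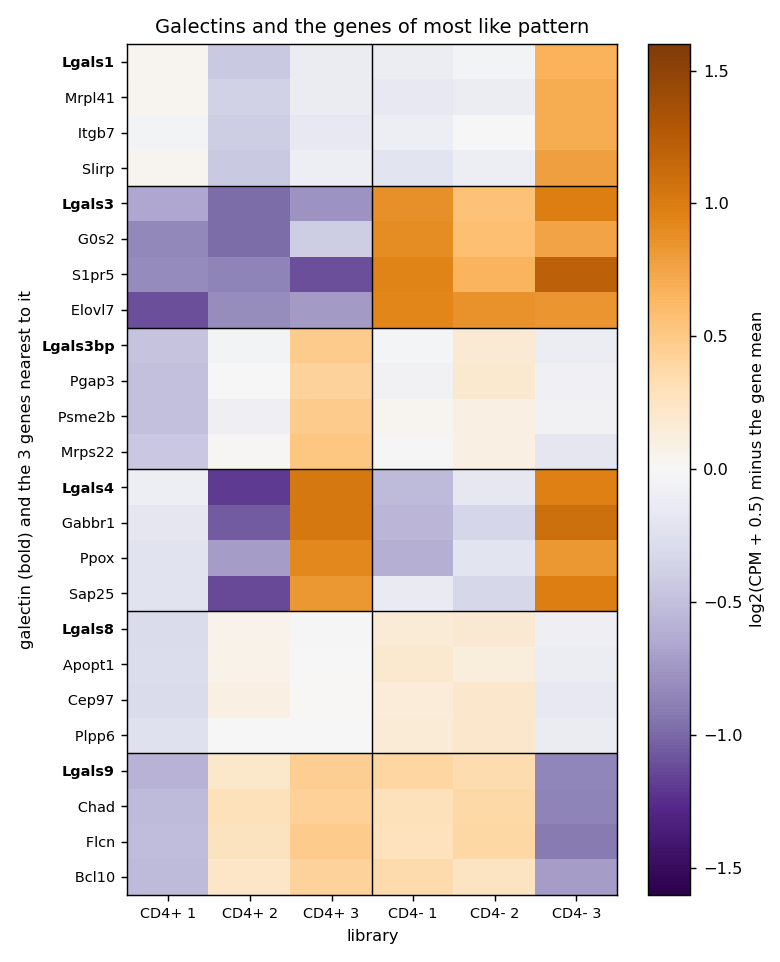
Log2(CPM + 0.5) of each of the 6 genes (bold) and the 3 genes nearest to it, centred on each gene's mean over the 6 libraries (columns, CD4-positive left of CD4-negative), from low in purple to high in orange. The Lgals3 block splits by group, the Lgals4 block is highest in replicate 3 of both groups, and the Lgals9 block is lowest in CD4-positive replicate 1 and CD4-negative replicate 3.

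Genes that act with galectins were set beside all genes tested. Over all 12760 genes 27, or 0.212%, passed edgeR's test between CD4-positive and CD4-negative cells, so lists this short would rarely hold a call. Counts of 0 in them are therefore no result about their genes. Of 18 ligands and receptors 17 were tested and 0 passed by edgeR, DESeq2 or limma-voom, with 3 at an unadjusted p under 0.05 by edgeR, which 567 of all 12760 genes had (4.44%). Their median log2 fold change was -0.19, against -0.01 over all genes tested, and 5 had non-overlapping groups, 1 higher and 4 lower, against 9.41% of all genes in either direction. Thy1, a glycoprotein of T cells that carries galectin-binding sugars, stood at 784, 840 and 821 CPM in CD4-positive and 1047, 1180 and 1201 CPM in CD4-negative replicates 1 to 3 (log2 -0.49, SE 0.16, edgeR adjusted p = 0.719). Itgb1, the integrin beta 1 chain, was at 555 ± 63.9 CPM in CD4-positive, against 740 ± 6.35 CPM in CD4-negative libraries (SD, n = 3 each; log2 -0.42, edgeR adjusted p = 0.955). Havcr2, which encodes the galectin-9 receptor TIM-3, had a mean of 0.020 CPM in CD4-positive libraries and no count in CD4-negative libraries, and was too low to be tested.

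The enzymes that build the sugars galectins bind were described by a pair of lists. N-glycan branching, which sets how many galactose-ended antennae a glycoprotein offers, had 15 tested genes, 0 past the test by edgeR, DESeq2 or limma-voom, 1 at an unadjusted p under 0.05 and a median log2 fold change of 0.01. Fut8, the core fucosyltransferase, was at 44.8 ± 10.01 CPM in CD4-positive, against 69.7 ± 17.5 CPM in CD4-negative libraries (SD, n = 3 each; log2 -0.64, edgeR adjusted p = 0.991). B4galt1, which adds the galactose, was at 235 ± 8.53 CPM in CD4-positive, against 272 ± 3.18 CPM in CD4-negative libraries (log2 -0.21, edgeR adjusted p = 1). Mgat5, whose branch is the preferred ligand of galectin-3, had a log2 fold change of 0.20 (SE 0.23) and was named after its value was seen.

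O-glycan extension and sialic acid capping, which can hide galactose from galectins, had 16 tested genes, 0 past the test by these tools, 1 at an unadjusted p under 0.05 and a median of 0.02. Neu3, a sialidase, was at 8.43 ± 2.25 CPM in CD4-positive, against 5.42 ± 0.89 CPM in CD4-negative libraries, and Fut7, a fucosyltransferase of selectin ligands, at 7.42 ± 1.84 CPM in CD4-positive libraries and 10.3 ± 0.93 CPM in CD4-negative ones (SD, n = 3 each; edgeR adjusted p = 1 for both). The response to damaged lysosomes, in which galectin-3, galectin-8 and galectin-9 take part, had 13 tested genes, 0 past the test by these tools, 0 at an unadjusted p under 0.05 by edgeR and a median of -0.02. Its members with the smallest p were Tfrc, the transferrin receptor (log2 0.21, SE 0.22), and Map3k7, the kinase TAK1 (log2 0.14, SE 0.15).

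**Figure D5:**
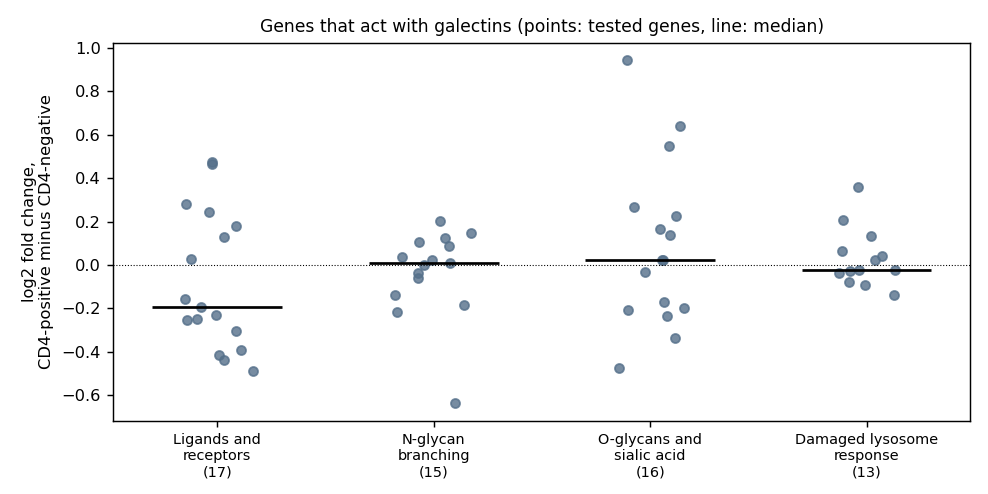
Log2 fold change between CD4-positive and CD4-negative libraries (vertical axis) of each tested gene in the 4 lists of genes that act with galectins, with a line at the list's median and the number of tested genes in brackets. The medians lie at -0.19 for ligands and receptors and between -0.02 and 0.02 for the other 3 lists.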

How the data were processed

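RNA was isolated with a Qiagen micro kit and sequenced in paired ends after stranded mRNA preparation, per the labels' protocols. The authors deposited 1 table of estimated counts per gene, not normalised. STAR, Picard, RSEM and mm10 are named, without versions or roles, per the submitters' processing notes. All 6 columns were matched by library name. Values were rounded (those of the 6 genes described were whole within 1e-06). R 4.3.3 with edgeR 4.0.16 fitted all genes kept by filterByExpr (12760) with TMM scaling, robust dispersions and a 2-sided quasi-likelihood F test with group as the only term, with Benjamini-Hochberg adjustment at 0.05. Other settings tried were upper-quartile and RLE scaling, DESeq2 1.42.0, limma-voom (limma 3.58.1), other filters, the replicate number as a block, the naming style as a batch term and single libraries left out. The tests were first tried on simulated data, with changes set in genes averaging 5 CPM or more. There edgeR recovered 21% of 2-fold and 97% of 4-fold changes, and 6 of its 124 calls were false. With limma-voom 21% and 97% were recovered and 7 of 125 calls were false. DESeq2 recovered 28% and 99%, and 28 of its 155 calls were false. Most 2-fold changes were missed in that trial, and the share missed in these libraries was not tested. SEs derive from the F statistic. Exon lengths are from GENCODE M21 and promoters from RefSeq (GRCm38.p6). The genes and lists were chosen with earlier results of these data known. All 6 genes were named, and from each list up to 2 genes per direction past the test, or else the 2 with the smallest p. Libraries of a group differed by more than sampling noise (chi-square per degree of freedom 55.6 to 400.5).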

Additional observations from a re-analysis of the deposited data

How the results depend on the processing

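The number of genes past the test over the whole table, 27, depended on the setting. It was 162 by DESeq2 on all genes with a count, 67 without a filter on low counts, 11 with the naming style as a batch term and 0 to 44 with single libraries left out. With the replicate number as a block 0 genes passed by edgeR, with 531 at an unadjusted p under 0.05. The deviations of same-numbered libraries from their group means had correlations of -0.205, 0.657 and 0.00377, and only the replicate 2 libraries correlated best with their own number. The labels do not say whether same-numbered libraries share animals or a sort, and the numbers were not taken as pairs. The counts of 0 in the 4 lists held under the 14 alternatives run. The Lgals3 log2 fold change lay between -1.74 and -1.54 over these, and those of the other 5 genes moved by less than their spread between replicates. Leaving out a single library can move a group mean by only part of that spread, so for those settings this is no evidence of stability. With single libraries left out 3 of the other 5 genes took either sign, Lgals4 at -0.95 to 0.63, Lgals3bp at -0.26 to 0.23 and Lgals9 at -0.27 to 0.28 (Lgals4 gave no value with a mean of at least 5 CPM, being below it). The R4 difference of Lgals4 was 1.68 by DESeq2 on all genes with a count, where it passed, and 1.40 to 2.03 with single libraries left out (alternatives chosen after seeing the data). By edgeR the adjusted p was 0.0818 to 0.819 where both R4 libraries remained. Depth limits Lgals4, with 46 to 311 counts a library, more than the other 5 genes, with 871 or more.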
